A study of Mus musculus with 10 samples.

Results

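The genes described here were nearly silent in wild-type (WT) naive CD8+ T cells and expressed in naive CD8+ T cells of Ikaros-Zn4-/- mice. They were chosen from a deposited table of RPKM values (read counts divided by transcript length and sequencing depth) in 10 libraries, 5 of each genotype. A gene was taken when its mean over the 5 WT libraries was below 2 RPKM, its mean over the 5 Ikaros-Zn4-/- libraries was at least 2 RPKM and at least 3 times the WT mean, and its lowest mutant value lay above its highest WT value both within 0 min and within 30 min of stimulation. Of 12637 entries, 132 met these conditions. A further 19 were set aside by name (predicted genes and Riken clones, a microRNA, names starting with Slc or Ig, and 6 single genes), which left 113 entries for 112 genes, because Mical3 is listed under 2 identifiers. The opposite rule, with the genotypes exchanged, found 21 entries. Since the measured genotype difference chose the genes, that difference is described below and not tested.

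The libraries came from Ikaros-Zn4-/- and WT female C57Bl/6 mice aged 6 weeks. Splenic CD8+ T cells were enriched by negative selection and sorted for a naive surface phenotype with little or no CD44. They were lysed at once (0 min) or after plate-bound stimulation through CD3, part of the T cell receptor, and the costimulatory receptor CD28. Of the 5 libraries of each genotype, 2 are from unstimulated cells, 2 from cells stimulated for 30 min and 1 from cells stimulated for 120 min. Whether libraries of a group came from separate mice is not given in the labels, and p-values therefore reflect the spread among these libraries alone, which may be technical. The series asks how Ikaros regulates genes induced by the T cell receptor.

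Ikaros, encoded by Ikzf1, is a DNA-binding zinc finger protein of lymphocytes that is known both to silence and to activate genes, in part by bringing chromatin remodelling complexes to DNA. The mutant allele is named for zinc finger 4, one of the fingers with which Ikaros contacts DNA. How the allele was made is not given in the labels. Naive CD8+ T cells are resting cells that have not met antigen and keep many, but not all, effector genes low.

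Ikzf1 itself had 206 and 226, 240 and 263, and 214 RPKM at 0, 30 and 120 min in mutant cells, against 134 and 148, 156 and 171, and 150 RPKM in WT cells. Every mutant library lay above every WT library. A value for the whole gene does not show whether one exon is missing, so it does not check the genotype labels. Library depths recovered from the steps of the RPKM values were 4.50 to 13.3 M reads, and 1 read on a transcript of 1 kb was worth 0.0750 to 0.222 RPKM. Markers of naive CD8 T cells were expressed in both genotypes. Cd8a, a chain of the CD8 coreceptor, spanned 52.2 to 511 RPKM in mutant and 47.5 to 436 RPKM in WT libraries, and Lef1, a transcription factor of naive T cells, spanned 67.6 to 76.5 RPKM in mutant and 64.5 to 78.1 RPKM in WT libraries. Neither passed the test for a genotype difference over all times (limma, Benjamini-Hochberg adjusted p = 0.192 and 0.868), which called 9.42% of all tested genes at an adjusted p of 0.05. In bulk RNA, a gene read in more cells and a gene read more strongly per cell cannot be told apart.

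For 82 of the 112 genes, RefSeq (GRCm38.p6) gave a promoter, taken here as the 250 bases before the transcription start. The following 3 are shown because their genes are among the 4 most highly expressed and because they span a CpG-rich, an intermediate and a CpG-poor promoter. They are written 5′ to 3′ on the strand of the gene, with CpG dinucleotides in capitals. The Pdlim4 promoter lies at chr11:54069018-54069267 on the minus strand, next to the gene at 54054928 to 54069014, and holds 21 CpG. The Mmp14 promoter lies at chr14:54431348-54431597 on the plus strand and holds 10 CpG. The Cd163l1 promoter lies at chr7:140218017-140218266 on the plus strand and holds 2 CpG.
Pdlim4: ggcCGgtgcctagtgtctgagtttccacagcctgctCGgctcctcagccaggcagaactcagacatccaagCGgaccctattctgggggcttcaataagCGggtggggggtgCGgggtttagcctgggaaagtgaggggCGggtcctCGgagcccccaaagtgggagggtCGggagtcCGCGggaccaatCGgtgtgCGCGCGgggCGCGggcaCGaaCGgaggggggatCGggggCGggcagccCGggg
Mmp14: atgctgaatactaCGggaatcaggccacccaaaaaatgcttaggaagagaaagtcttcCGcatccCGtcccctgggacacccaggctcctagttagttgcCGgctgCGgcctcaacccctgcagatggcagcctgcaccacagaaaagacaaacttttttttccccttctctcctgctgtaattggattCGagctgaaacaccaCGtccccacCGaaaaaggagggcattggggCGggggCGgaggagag
Cd163l1: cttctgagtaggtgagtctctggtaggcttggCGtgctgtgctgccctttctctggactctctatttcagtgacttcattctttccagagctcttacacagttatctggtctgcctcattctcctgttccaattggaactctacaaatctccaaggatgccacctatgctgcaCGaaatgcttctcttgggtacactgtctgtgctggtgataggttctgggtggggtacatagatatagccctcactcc

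Promoters of the chosen genes held few CpG more often than those of the table as a whole. At most 5 CpG were found in 26 promoters, which is 31.7% of the 82, against 11.9% of all 8129 matched promoters. Among the 1312 protein coding genes outside the rule whose WT mean was also below 2 RPKM, 18.7% held at most 5. The median was 10 CpG for the chosen genes, 14 for those other lowly expressed genes and 16 for all genes. The sequence TGGGAA, which contains the GGGAA core that Ikaros is known to bind, was present on either strand in 24.4% of the chosen promoters, in 24.1% of those of the other lowly expressed genes and in 20.1% of all promoters. GGGAA alone, which every TGGGAA contains, was present in 61.0% of the chosen and 58.2% of all promoters. GGAAG, an Ets-type sequence, was present in 69.5% and 69.3%, and TGTGGT, a Runx-type sequence, in 4.88% and 10.7%. Of the promoters printed above, Pdlim4 holds TGGGAA. These are matches of letters in a short window and were not tested.

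For 11 of the 82 genes the matched RefSeq start lies more than 1000 bases from the start of the gene in GENCODE M21, which also held for 8.48% of all matched genes. Without such starts, a comparison chosen after seeing the data, at most 5 CpG were found in 29.6% of the chosen promoters, 16.5% of those of the other lowly expressed genes and 10.35% of all, and TGGGAA in 22.5%, 23.9% and 20.1%.

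**Figure D1:**
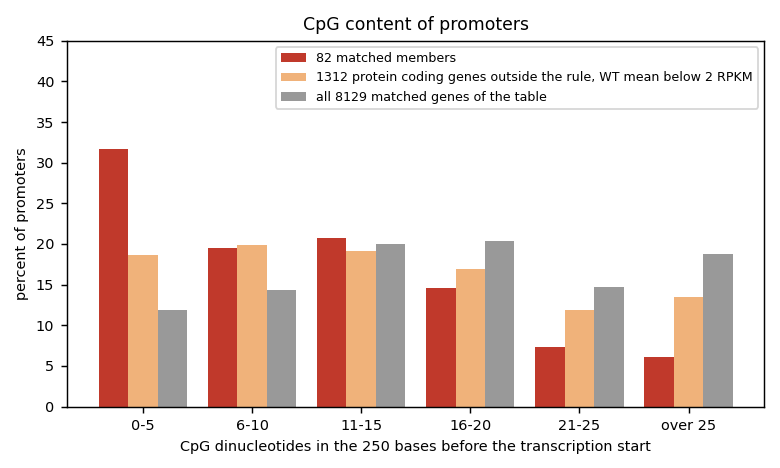
Percent of promoters (vertical axis) by the number of CpG dinucleotides in the 250 bases before the transcription start (horizontal axis), for the 82 matched chosen genes, 1312 other protein coding genes with a WT mean below 2 RPKM and all 8129 matched genes. The class with at most 5 CpG holds 31.7% of the chosen genes, 18.7% of the other lowly expressed genes and 11.9% of all genes.

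Summed over the 113 entries, expression was 711 and 815, 674 and 710, and 566 RPKM at 0, 30 and 120 min in mutant cells, against 77.7 and 78.7, 68.1 and 57.6, and 66.9 RPKM in WT cells. The median entry had a mean of 3.77 RPKM in mutant and 0.490 RPKM in WT cells. The median ratio of the means was 8.31, and 53 entries reached a ratio of 10 and 17 a ratio of 50. Silence in WT cells was a matter of degree. The WT mean was below 0.5 RPKM for 58 entries and below 0.1 RPKM for 16, no entry was at 0 in all WT libraries, and the highest WT value was 6.10 RPKM, for Lzts2 at 120 min.

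The rule made no demand on the genotypes at 120 min taken alone. There, with 1 library of each genotype and no test, all 113 entries were higher in the mutant library. The mutant and WT values at 120 min had entered the means, and without the mutant 120 min library the rule kept 103 of the 113. The share of the whole table that was higher was not counted, so nothing is read from this count. The mutant value was at least 3 times the WT value for 92 of them, against 5.57% of all entries in the table. For 88 entries, all 5 mutant values lay above all 5 WT values, which held for 2.73% of the table. The conditions of the rule favour both of these counts, so nothing is read from their distance to the table. Absence of overlap at 0 and at 30 min, which the rule required, held for 11.8% of the table, or 2.14% with the 3-fold condition.

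**Figure D2:**
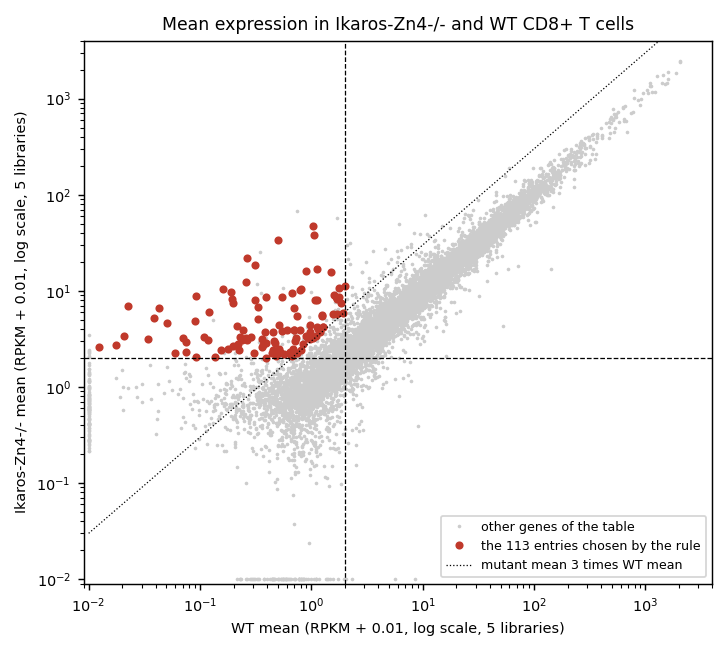
Mean RPKM over 5 Ikaros-Zn4-/- libraries (vertical axis) against mean RPKM over 5 WT libraries (horizontal axis), both on log scales after adding 0.01, for all entries (grey) and the 113 chosen ones (red). Dashed lines mark 2 RPKM and the dotted line a ratio of 3, so the red points fill the upper left corner by construction, with mutant means from 2.01 to 47.3 RPKM.

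The edges of the rule were crowded. Just inside the WT limit were Ly6a, with means of 11.2 RPKM in mutant and 1.98 RPKM in WT cells, RP23-389F23.2 with 5.85 and 1.93 RPKM, and Lzts2 with 7.39 and 1.83 RPKM. Just outside were Gpr55 (6.35 RPKM in mutant, 2.02 RPKM in WT cells), Grn (8.15 and 2.06 RPKM) and Cd74 (29.8 and 2.06 RPKM). At the mutant limit, Nod2, Lag3 and Nrn1 were inside with mutant means of 2.01, 2.03 and 2.05 RPKM, and Lrrc6, Aqp9 and H2-Q10 outside with 1.97, 1.94 and 1.85 RPKM. At the ratio limit, RP23-389F23.2, Hsd3b7 and Ptgfrn were inside at 3.04 each, and Wfs1, Susd3 and Plekhg3 outside at 2.98, 2.95 and 2.92. Hk2, Ccl4, Ccl3, Ifng and Lyz2 met the conditions on the means and failed only because the genotypes overlapped at 0 or 30 min.

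Among genes of the cytoskeleton and of small GTPases, Pdlim4, a PDZ and LIM domain protein that binds actin, was the most highly expressed gene of all 112. Pdlim4 had 42.1 and 64.3, 57.3 and 61.6, and 11.1 RPKM at 0, 30 and 120 min in mutant cells, against 1.86 and 1.67, 0.977 and 0.671, and 0 RPKM in WT cells. The lowest mutant value, at 120 min, was still above every WT value. Sept8, a septin of the filament-forming GTPase family, had 22.3 and 20.9, 16.2 and 16.5, and 4.09 RPKM at 0, 30 and 120 min in mutant cells, against 1.41 and 1.31, 0.793 and 0.734, and 0.203 RPKM in WT cells. Both genes were lowest at 120 min in both genotypes. Rnd1, a small GTPase that loosens the actin cytoskeleton, had 0.859 and 1.35, 11.6 and 12.3, and 14 RPKM at 0, 30 and 120 min in mutant cells, against 0.220 and 0.0379, 2.09 and 1.62, and 1.32 RPKM in WT cells. It was low in resting cells of both genotypes, and its mutant values at 0 min overlapped the WT values after stimulation.

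The other members of this group had mutant means of 2.12 to 8.58 RPKM. They include the unconventional myosins Myo10 and Myo1e, the GTPase regulators Arhgap21 and Arhgef5, the Rac activator Tiam1 and the intermediate filament protein Krt18. Myo10 averaged 8.55 RPKM in mutant and 0.382 RPKM in WT cells. Krt18, keratin 18 of simple epithelia, averaged 4.66 RPKM in mutant cells, with 297 recovered reads, against 3 reads in all WT libraries together.

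Genes of adhesion, junctions and matrix were on average the most weakly expressed in WT cells, with a median WT mean of 0.196 RPKM over 14 genes against a median mutant mean of 4.60 RPKM. Mmp14, a membrane-anchored matrix metalloproteinase, had 23.5 and 27.3, 17.8 and 24.8, and 15.1 RPKM at 0, 30 and 120 min in mutant cells, against 0.143 and 0.520, 0.133 and 0.0662, and 0.403 RPKM in WT cells. The genotypes were far apart at every time. Cdh1, E-cadherin, averaged 4.34 RPKM in mutant and 0.203 RPKM in WT cells. Of the p120 family of catenins, which bind the inner side of cadherins, Ctnnd2 averaged 8.92 RPKM in mutant and 0.0826 RPKM in WT cells, and Ctnnd1 averaged 3.40 RPKM in mutant and 0.0109 RPKM in WT cells. Tln2, a talin that links integrins to actin, averaged 4.85 RPKM in mutant and 0.0805 RPKM in WT cells. The galectins Lgals3 and Lgals7 and the galectin-like Lgalsl, the proteoglycans Sdc4 and Gpc1, and Dlg5, Kirrel, Ninj2 and Pcdhga12 complete the group.

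**Figure D3:**
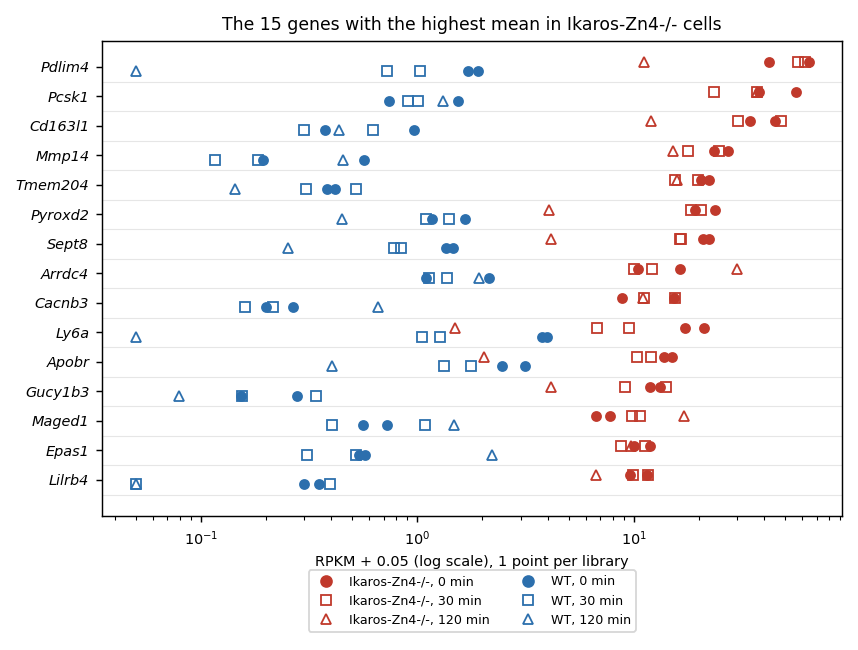
RPKM plus 0.05 on a log scale (horizontal axis) of the 15 genes with the highest Ikaros-Zn4-/- mean, 1 point per library, with mutant libraries (red) above WT libraries (blue) in each row and the marker giving the time. Mutant points lie to the right of WT points in each row except for Ly6a and Apobr, whose 120 min mutant values of 1.44 and 1.98 RPKM fall among WT values.

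Immune receptors and ligands included Cd163l1, a scavenger receptor known from gamma-delta T cells. Cd163l1 had 44.8 and 34.2, 47.7 and 30.1, and 11.9 RPKM at 0, 30 and 120 min in mutant cells, against 0.917 and 0.326, 0.574 and 0.249, and 0.386 RPKM in WT cells. The groups did not overlap. The other genes of the fixed list for gamma-delta and innate-like T cells had no value analysed here. Trdv5, a variable segment of the T cell receptor delta chain, had 4.35 and 11.6, 3.40 and 6.03, and 1.89 RPKM in mutant cells, against 0.540 and 3.59, 0.750 and 0.498, and 0.828 RPKM in WT cells, and 1 WT library at 0 min lay above the mutant libraries with 3.40 and 1.89 RPKM. Outside the set, Trdv1 averaged 2.50 RPKM in mutant and 0.977 RPKM in WT cells (limma adjusted p = 0.0725), and Tcrg-C2 averaged 1.85 and 0.644 RPKM (adjusted p = 0.165). The part of gamma-delta T cells in these values was not tested.

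Ly6a, the surface protein Sca-1, had 17.2 and 21, 6.73 and 9.50, and 1.44 RPKM at 0, 30 and 120 min in mutant cells, against 3.94 and 3.73, 1.22 and 0.998, and 0 RPKM in WT cells. Its level was lower after stimulation in both genotypes, so that the mutant library at 120 min lay below the WT libraries at 0 min. Lilrb4, an inhibitory receptor known from myeloid cells and activated lymphocytes, had 11.5 and 9.53, 11.5 and 9.88, and 6.63 RPKM in mutant cells, against 0.250 and 0.302, 0.347 and 0, and 0 RPKM in WT cells. Gp49a, its near-identical neighbour, averaged 6.03 RPKM in mutant and 0.111 RPKM in WT cells, and how reads were divided between the pair is uncertain. The inhibitory receptors Pdcd1 (PD-1) and Lag3 were among the weaker members. Pdcd1 had 2.60 and 2.30, 0.709 and 1.62, and 5.12 RPKM in mutant cells, against 0.482 and 0.525, 0.313 and 0.534, and 0.642 RPKM in WT cells. Lag3 had 1.24 and 3.37, 1.16 and 3.21, and 1.18 RPKM in mutant cells, against 0.265 and 0.160, 0.164 and 0, and 0.0452 RPKM in WT cells. For both, all mutant values lay above all WT values. Of the 5 other tested genes on the list of inhibitory receptors, Entpd1 (CD39), with means of 1.74 RPKM in mutant and 0.0638 RPKM in WT cells, rose (adjusted p = 0.00159, limma), and Btla, Cd160, Nt5e and Tigit did not pass the test. The chemokine Xcl1, the chemokine receptor Ccr8, the receptor kinase Axl and Slamf7, Ms4a6d and Ptgfrn had mutant means of 2.18 to 5.74 RPKM.

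Transcription and nuclear factors included Tbx21 (T-bet), which drives effector differentiation of T cells. Tbx21 had 3.92 and 4.46, 4.67 and 5.16, and 3.58 RPKM at 0, 30 and 120 min in mutant cells, against 1.53 and 0.904, 1.25 and 0.760, and 0.383 RPKM in WT cells. Ikzf4 (Eos), a relative of Ikaros, had 2.95 and 4.19, 2.10 and 2.28, and 4.59 RPKM in mutant cells, against 1.03 and 0.845, 0.547 and 0.802, and 1.89 RPKM in WT cells. Neither gene overlapped between genotypes. Epas1, the hypoxia-inducible factor HIF-2 alpha, had 9.99 and 11.8, 11.3 and 8.72, and 9.68 RPKM in mutant cells, against 0.526 and 0.487, 0.471 and 0.259, and 2.17 RPKM in WT cells, where the 120 min library was the highest. Maged1, a member of the MAGE family, had 6.62 and 7.76, 9.79 and 10.6, and 17.0 RPKM in mutant cells, against 0.514 and 0.672, 1.03 and 0.355, and 1.42 RPKM in WT cells. Both 120 min libraries were the highest of their genotype for Maged1.

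Tbx21 was the single member on the list of effector and memory CD8 T cell genes. Of the 8 other tested genes of that list, Cxcr3 and Il2rb rose and none fell, against 6.19% of all tested genes called higher in mutant cells and 3.24% called lower. Cxcr3, a chemokine receptor of effector cells, averaged 31.4 RPKM in mutant and 2.22 RPKM in WT cells, above the WT limit of the rule (adjusted p = 8.41e-07). Il2rb, a chain of the interleukin-2 and interleukin-15 receptors, averaged 189 RPKM in mutant and 113 RPKM in WT cells (adjusted p = 0.0101). Cd44, the marker whose low level defined the sort, averaged below 2 RPKM in both genotypes and did not pass the test (adjusted p = 0.196). Eomes, a relative of T-bet on the natural killer cell list, averaged 19.9 RPKM in mutant and 5.91 RPKM in WT cells (adjusted p = 3.72e-05).

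Genes of other lineages were looked up beside these values. On the myeloid list, 3 of 12 genes could be tested and Itgam rose, with means of 1.29 RPKM in mutant and 0.216 RPKM in WT cells (adjusted p = 0.00272). The summed myeloid level was 8.59 to 34.2 RPKM in mutant and 8.14 to 24.8 RPKM in WT libraries. On the B cell list, 2 of 8 genes could be tested, and Cd79b fell, with means of 5.11 RPKM in mutant and 9.57 RPKM in WT cells (adjusted p = 0.00239). Cd79a, with 1.65 and 1.07 RPKM, did not pass (adjusted p = 0.491). The immunoglobulin genes Igkc and Ighg2c, outside the list, met the rule and were set aside by name. Igkc averaged 9.59 RPKM in mutant and 0.345 RPKM in WT cells, and Ighg2c 2.37 and 0 RPKM. Both had 0 RPKM in the mutant 120 min library. Kit and Gata1 were the single tested genes of the progenitor list and of the erythroid and platelet list, and both rose, to means of 1.76 and 1.53 RPKM in mutant cells, against 0.393 and 0.382 RPKM in WT cells (adjusted p = 0.00115 and 0.0134). On the thymocyte list, Dntt rose (adjusted p = 0.000688), while Themis, Cd1d1 and Tox, at log2 differences of -0.15, -0.05 and -0.22, did not pass. On the dendritic cell list, Irf8 rose and Ccr9 fell of 2 tested genes. Nkg7 and Eomes rose of 4 tested genes of the natural killer cell list that do not meet the rule. On the Notch list, Rbpj rose and Notch2 fell of 8 tested genes. Sema4a and Sema4f rose of 11 such genes of the axon guidance list. The single germline gene tested did not pass. The part of other cell types in the levels of the chosen genes was not tested.

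Signalling proteins included both subunits of soluble guanylate cyclase, the receptor for nitric oxide. Gucy1b3 had 11.9 and 13.1, 9.01 and 14.1, and 4.08 RPKM at 0, 30 and 120 min in mutant cells, against 0.229 and 0.104, 0.292 and 0.106, and 0.0293 RPKM in WT cells. Gucy1a3, 17738 bases away on chromosome 3, averaged 6.78 RPKM in mutant and 0.322 RPKM in WT cells. Neither subunit overlapped between genotypes. Cacnb3, a regulatory subunit of voltage-gated calcium channels, had 8.80 and 15.2, 11.1 and 15.4, and 11 RPKM in mutant cells, against 0.149 and 0.216, 0.166 and 0.110, and 0.611 RPKM in WT cells. Arrdc4, an arrestin-related protein that limits glucose uptake, had 10.4 and 16.3, 10.01 and 12.1, and 29.8 RPKM in mutant cells, against 1.05 and 2.09, 1.32 and 1.08, and 1.89 RPKM in WT cells. The 120 min mutant library was the highest for Arrdc4, and the genotypes did not overlap for either gene. Kcnip3, a calcium-binding protein, had 983 recovered reads in the mutant libraries together against 2 in the WT libraries, and Evc, a protein of the primary cilium, had 880 against 1.

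Enzymes were led by Pcsk1, a protease that cuts prohormones in endocrine cells. Pcsk1 had 37.7 and 56.2, 23.4 and 37.0, and 37.0 RPKM at 0, 30 and 120 min in mutant cells, against 0.690 and 1.49, 0.852 and 0.954, and 1.26 RPKM in WT cells. Pyroxd2, an oxidoreductase, had 23.6 and 19.1, 20.3 and 18.3, and 4.01 RPKM in mutant cells, against 1.61 and 1.12, 1.35 and 1.05, and 0.397 RPKM in WT cells. Neither gene overlapped between genotypes. Cyp4f16, a cytochrome P450, had 11.3 and 11, 8.42 and 11.2, and 1.26 RPKM in mutant cells, against 0.803 and 0.671, 0.6 and 0.569, and 0.0316 RPKM in WT cells. Others were the sulfotransferase Chst11, the cholesterol-esterifying enzyme Soat2, the bile acid synthesis enzyme Hsd3b7, the folate enzyme Aldh1l1 and the drug exporter Abcg2, with mutant means of 2.44 to 9.43 RPKM.

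Genes of innate sensing and the interferon response were few. Ube2l6, the conjugating enzyme for the ubiquitin-like protein ISG15, averaged 7.97 RPKM in mutant and 0.302 RPKM in WT cells. Casp1 (caspase-1), the sensor Nod2 and the antiviral membrane protein Ifitm3 averaged 2.01 to 2.99 RPKM in mutant and 0.187 to 0.452 RPKM in WT cells. Among the remaining 29 genes, Tmem204, a transmembrane protein, had 20.3 and 22.3, 15.4 and 19.7, and 15.8 RPKM in mutant cells, against 0.368 and 0.334, 0.469 and 0.255, and 0.0942 RPKM in WT cells, with no overlap. Apobr, a lipoprotein receptor, had 14.9 and 13.7, 10.3 and 12, and 1.98 RPKM in mutant cells, against 3.08 and 2.41, 1.71 and 1.27, and 0.353 RPKM in WT cells, and its 120 min mutant value fell among the WT values. Apobr shares 442 exonic bases with Cln3 on the opposite strand, and the kit does not mark strand, so reads of the pair cannot be told apart there.

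**Figure D4:**
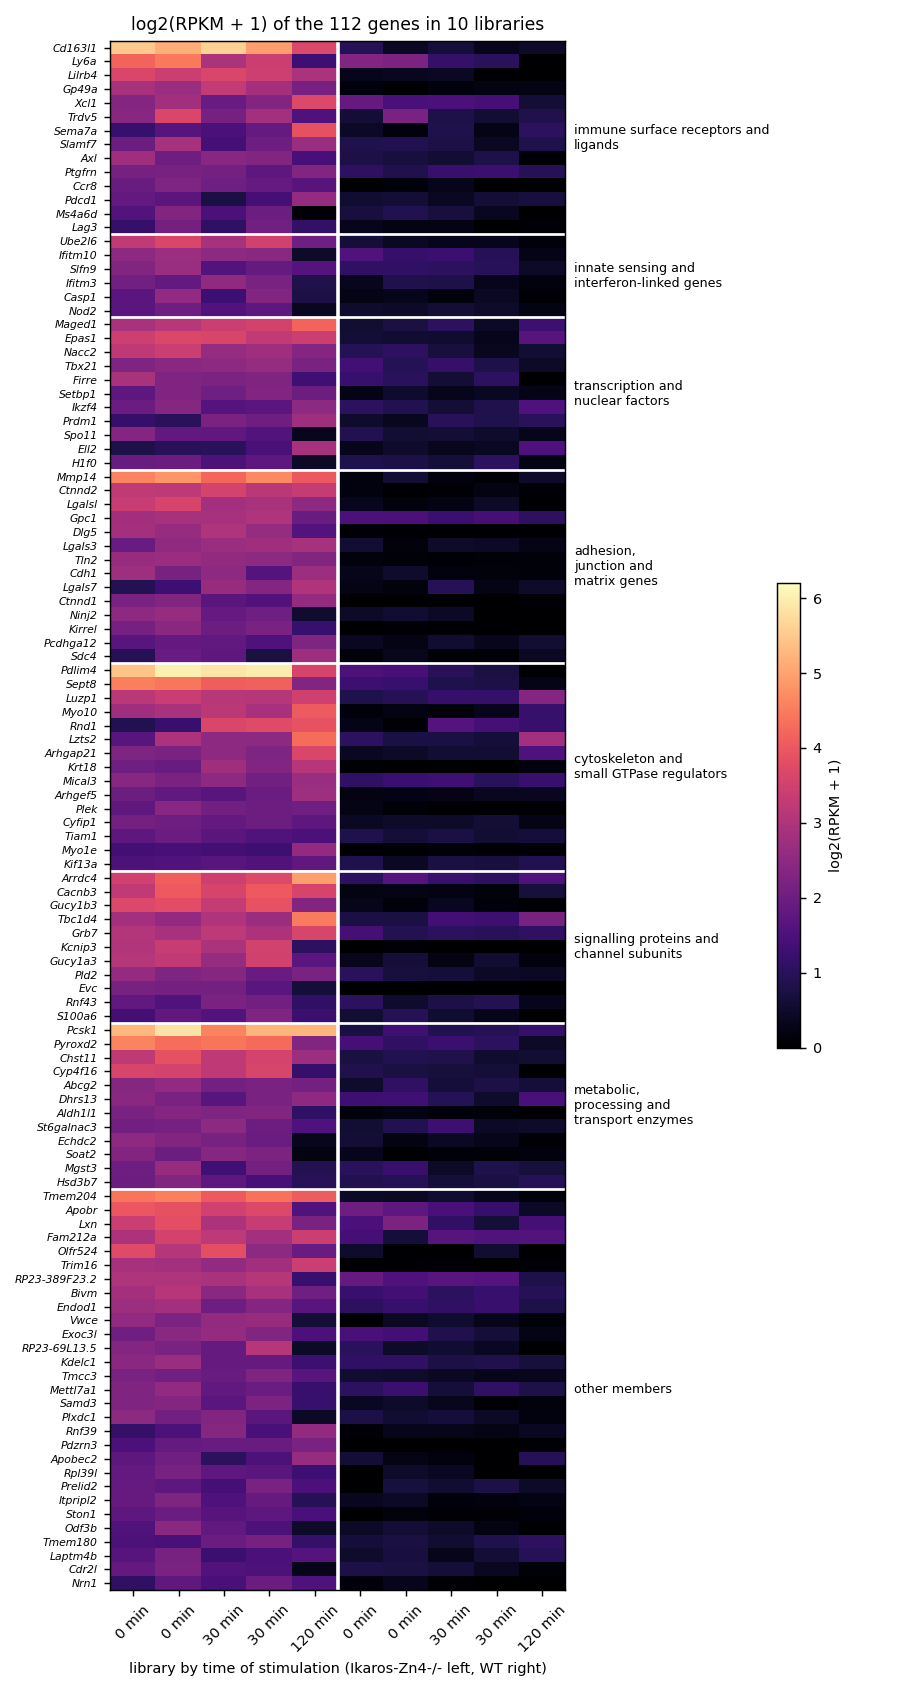
Heat map of log2(RPKM + 1) for the 112 genes (rows, grouped by role) in 5 Ikaros-Zn4-/- libraries (left) and 5 WT libraries (right), with the time of stimulation under each column. The mutant side is brighter in every group of genes by choice of the genes, and the 120 min mutant column is darker than the other mutant columns for many enzymes and innate genes.

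Stimulation within mutant cells was not part of the rule and could be tested, although all mutant libraries entered the mean that chose the genes. After 30 min few of the chosen genes moved. At an adjusted p of 0.05 (limma on log2(RPKM + 1)), 3 of 113 entries were called, against 2.74% of all tested genes. Of these, 2 were higher, against 1.68%, and 1 was lower, against 1.06%. All genes together shifted by a median of -0.12 on the log2 scale, and changes are given relative to that median, while each adjusted p tests the change as deposited. Rnd1 rose by 2.75 (adjusted p = 0.00285), and Prdm1 (Blimp-1), a transcriptional repressor that promotes effector differentiation, rose by 1.15 (adjusted p = 0.0400). Ly6a changed by -1.04 (adjusted p = 0.0367). Prdm1 had 1.26 and 1.01, 3.63 and 3.09, and 5.84 RPKM in mutant cells, against 0.441 and 0.287, 0.989 and 0.782, and 1.02 RPKM in WT cells, and 1 of its mutant values at 0 min lay below the WT value at 120 min. Rnd1 and Prdm1 are among the 11 genes with a mutant mean below 2 RPKM at 0 min, which entered the set through higher values after stimulation, so nothing is read from the count of genes that rose. The call of Ly6a was lost in 10 of 18 alternative settings, that of Prdm1 in 10 of 17 and that of Rnd1 in 1 of 18.

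After 120 min, called genes of the set went in both directions. At the same threshold 62 of 113 entries were called, against 47.3% of all tested genes. Of the 113, 16 were higher, against 14.7%, and 46 were lower, against 32.6%. The mutant 120 min group is 1 library, so these tests assume that it varies like the other groups and have no replicate check of their own. The rule also required mutant values at 0 min above the WT values, and 0 min is the baseline of this change. Such a choice favours falls, so nothing is read from the number of genes that fell. The median of all genes was -0.35 and that of the chosen entries -0.52, a difference of -0.17. The split depended on the scale: 27 were higher and 39 lower after median-ratio scaling of the libraries, and 27 higher and 26 lower after quantile normalization.

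Of the 16 that rose, 7 came from the 11 genes whose mutant mean at 0 min was below 2 RPKM. The other 9 came from 102 entries. The mutant mean that chose the genes included the 120 min library tested here. Without that library the rule no longer took Sema7a, Ell2, Lzts2, Myo1e and Xcl1, of which Lzts2 and Xcl1 are among the other 9. The selection thus favoured high mutant values at 120 min, and nothing is read from the number of genes that rose. The largest changes, relative to the median of all genes, were 3.19 for Rnd1 (SE 0.24, adjusted p = 0.000347) and 2.81 for Sema7a (SE 0.35, adjusted p = 0.00157), a membrane-anchored semaphorin of activated T cells. Sema7a had 1.30 and 2.16, 1.81 and 2.68, and 13.9 RPKM in mutant cells, against 0.367 and 0.137, 0.785 and 0.209, and 1.04 RPKM in WT cells. Its mutant value at 120 min was far above every other library. Ell2, a transcription elongation factor, rose by 2.36, Lzts2 by 2.32, Lgals7 by 2.25, Tbc1d4 by 2.16 and Prdm1 by 2.03. Tbc1d4, a regulator of glucose transporter traffic, had 6.02 and 4.92, 7.05 and 5.40, and 21.7 RPKM in mutant cells, against 0.704 and 0.689, 1.57 and 1.41, and 3.52 RPKM in WT cells, so the 120 min library was the highest in each genotype. Arhgap21, Rnf39, Myo10, Myo1e, Maged1, Arrdc4, Krt18, Xcl1 and Arhgef5 rose by 1.18 to 1.75.

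Among the 15 cytoskeleton and small GTPase genes, 7 rose at 120 min (Rnd1, Lzts2, Arhgap21, Myo10, Myo1e, Krt18 and Arhgef5) and 2 fell (Pdlim4 and Sept8). No gene of the 12 enzymes rose and 7 fell, and of the 6 innate genes none rose and 5 fell. Over all tested genes, 14.7% rose and 32.6% fell. These role groups were drawn up after the values were seen, were not tested as groups and rest on the single 120 min library. Rnd1 and Myo1e had a mutant mean below 2 RPKM at 0 min. Lzts2 and Myo1e were no longer taken by the rule when the mutant 120 min library was left out.

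Of the genes that fell at 120 min, Ly6a changed most, by -2.69 relative to the median (SE 0.24, adjusted p = 0.00034), followed by Cyp4f16 at -2.08 (SE 0.22, adjusted p = 0.000395) and Apobr at -2.02 (SE 0.21, adjusted p = 0.000392). Sept8, Pyroxd2, Kcnip3, Pdlim4 and Ifitm10 changed by -1.81 to -1.79. Echdc2 and Ninj2 changed by -1.71 and -1.68. Cd163l1 changed by -1.29 (adjusted p = 0.00848) and Gucy1b3 by -1.06 (adjusted p = 0.0061). All 46 genes called lower were also below the median of all genes. Of the most highly expressed genes, Pcsk1 (0.04, adjusted p = 0.52), Tmem204 (-0.06, adjusted p = 0.152), Mmp14 (-0.36, adjusted p = 0.0618), Cacnb3 (0.28, adjusted p = 0.885) and Epas1 (0.20, adjusted p = 0.611) did not pass the test.

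**Figure D5:**
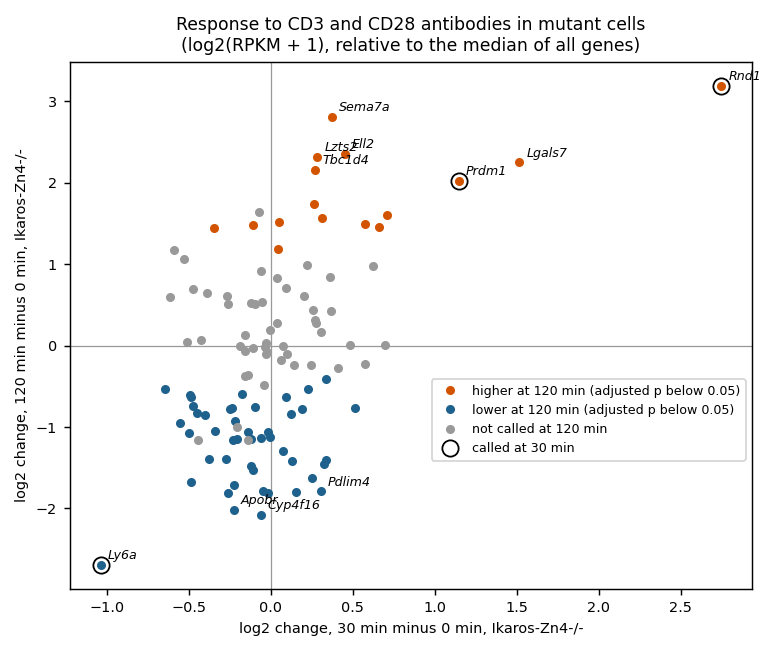
Log2 change of the 112 genes in Ikaros-Zn4-/- cells after 120 min (vertical axis) and after 30 min (horizontal axis) of stimulation, each relative to the median of all genes. Rnd1 stands at the upper right with 2.75 at 30 min and 3.19 at 120 min, Ly6a at the lower left with -1.04 and -2.69, and most other genes change little at 30 min.

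Whether the response differed between genotypes was tested as an interaction. No gene of the 12203 passed at 30 or at 120 min with limma, where 656 and 661 genes had an unadjusted p below 0.05, and limma-voom on recovered reads also called none. Of the 113 chosen entries, 7 had an unadjusted p below 0.05 at 30 min and 38 at 120 min, and their smallest adjusted p was 0.876 and 0.703. Their median interaction at 120 min was -0.45 on the log2(RPKM + 1) scale, against -0.03 for all genes, and -0.06 with limma-voom, against -0.03. The rule required a gap between the genotypes at 0 min, and these values enter the interaction, so the members' values are a description.

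The chosen genes lay on 19 chromosomes, with 11 on chromosome 15, which is 10% of those placed, against 3.71% of the table. Of the 113 entries, 107 were annotated as protein coding in GENCODE M21, 94.7% against 77.6% of the table. The name exclusions had been applied to the chosen entries and not to the table, so these shares are not alike and nothing is read from the gap. Pairs within 100000 bases of one another were sought among the 110 entries placed in GENCODE M21. These were Gucy1a3 and Gucy1b3, Bivm and Kdelc1 (149 bases apart), Cd163l1 and Olfr524 (12303 bases) and Cacnb3 and Rnd1 (18892 bases). Entries not placed there were not searched, and the pair Lilrb4 and Gp49a named above is not among those found. After 30 min in mutant cells Rnd1 rose, while Cacnb3 did not pass the test (0.28 relative to the median, adjusted p = 0.753), and the difference between these neighbours was not tested. Among 396 tested neighbours within that distance that did not meet the rule, 28 were higher in mutant cells (7.07%, against 6.19% of all tested genes) and 11 were lower (2.78%, against 3.24%).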

How the data were processed

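RNA of 10 libraries was sequenced single-end with the unstranded TruSeq RNA v2 kit, per the labels. The authors deposited 1 table of RPKM values, with 1 column per library. Per the submitters' processing notes, tools were TopHat2 2.0.12 and HTSeq 0.6.1 with mm10 and GRCm38; for gene lengths and gene filtering, the details are not given in the sources used. Each entry reaches a mean of 1 RPKM in at least 1 group.

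Depth was recovered from the RPKM steps with GENCODE M21 exon lengths: of values below 200 reads, 65.7% to 71.2% came out whole, to 0.01 read. Tests used limma 3.58.1 in R 4.3.3 on log2(RPKM + 1) for 12203 entries with a mean of at least 0.5 RPKM, with group means for stimulation and interaction (residual degrees of freedom 4) and genotype plus time for genotype (6). P-values were two-sided and Benjamini-Hochberg adjusted over all entries, at 0.05. Per-library values are given for the 15 highest mutant means, for the largest called changes and for genes on the marker lists. A marker of the naive list is not reported here. Members and lists were chosen with earlier results of these data known.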

Additional observations from a re-analysis of the deposited data

How the results depend on the processing

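Of 869 alternative values for 25 named genes, 835 kept their side of the threshold, 25 lost the call and 9 gained one. Sign changes were counted as reversed only where the main or the alternative setting passed, and 0 were. Some changes that passed in neither setting did change sign. For Cd163l1 at 30 min the values ran from -0.37 to 0.28. The rule found 50 entries with a mutant mean of at least 4 RPKM, and 102 to 120 when 1 library was left out. For mutant cells at 30 min, 334 genes were called, against 961 with a replicate block, 972 with limma-voom (added after seeing the data), 0 with the spread of mutant libraries alone (2123 at an unadjusted p below 0.05) and 39 to 337 without 1 library. The 2 entries higher at 30 min became 1 with a pseudocount of 0.1, 0 with mutant libraries alone and 1 to 2 without 1 library, and the 1 lower entry became 0, 0 and 0 to 1, or 3 with limma-voom. At 120 min, the 16 higher entries became 10 with a pseudocount of 0.1, 27 with median-ratio scaling and 27 with quantile normalization, and the 46 lower became 27 with a filter at 2 RPKM (66 entries tested) and 26 with quantile normalization. The interaction called 1 gene at 120 min with a pseudocount of 0.1 and 13 with no filter, and 0 to 1 at 30 min without 1 library. The genotype contrast called 1150 genes, and 706 to 1036 without 1 library. Beyond fewer samples or genes tested, the cause was not tested. Same-numbered libraries correlated at 0.037 to 0.230 in their deviations, positive in every pair but not above 0.1 in every pair. What the replicate numbers stand for is not given in the labels, so the block was kept as an alternative only. Both 120 min libraries are numbered 2 in their descriptions, so a difference by number would enter the changes at 120 min. With the block, the median change there was -0.49 for the chosen entries and -0.37 for all genes. Depth limits WT values: Kcnip3, Krt18, Pdzrn3 and Evc had at most 3 WT reads in all.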
